A study of Homo sapiens with 8 samples.

Results

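The library held 112 sgRNAs against 16 genes of protein folding, protein degradation and stress sensing, with 7 sgRNAs per gene. They were defined by gene symbol, as every sgRNA whose target was a heat shock protein (HSP), an FK506-binding protein (FKBP), a cyclophilin (PPIA, PPIB, PPID), a proteasome subunit (PSM) or one of the stress kinases ERN1 and EIF2AK4. They made up 112 of the 9929 targeting sgRNAs, which covered 1420 genes, and the library also held 500 control sgRNAs. An sgRNA guides the nuclease Cas9 to a matching site in the genome, the gene is often lost when the break is mended, and the integrated sgRNA then labels the cell. The screen was done in COV362 cells made resistant to platinum and given Cas9, COV362 being a human cell line from an ovarian carcinoma. All cells, sorted or not, came from 1 transduction, were selected with puromycin, and were then split into 4 cultures kept for 2 weeks. From each culture, stained for the arginine methyltransferase PRMT5, the brightest 20% (PRMT5hi) and the dimmest 20% (PRMT5lo) were collected, which gave 4 libraries of each population. There was no library of the unsorted cells or of an earlier time among those analysed here, so abundance is given relative to the control sgRNAs.

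Heat shock proteins bind unfolded or partly folded proteins and keep them from aggregating, and HSP90 holds kinases and steroid receptors in a form that can be activated. Immunophilins are prolyl isomerases that bind the drugs FK506 (FKBPs) or cyclosporin (cyclophilins), and several of them carry clients together with HSP90. The proteasome degrades proteins marked with ubiquitin, and the stress kinases slow translation or switch on repair when unfolded protein builds up or amino acids run short.

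The values were the authors' means over the 4 libraries of a population, in CPM (counts of an sgRNA scaled to a common library total), each given here with the SE from the authors' variance. That variance covers the spread between libraries, except where it was the smallest the method allows and reflects read counting alone, as in at least 1 population for 24 of the 112 members, so an SE can be too small. The ratio was log2 of CPM + 1 in PRMT5lo over CPM + 1 in PRMT5hi, so a negative ratio means that an sgRNA was more abundant in PRMT5hi. Abundance was the mean CPM of both populations. The reads recovered from the deposited variances were 16166859 for PRMT5hi and 19117396 for PRMT5lo, or 388 and 458 per sgRNA and library. The reads carried no molecular identifiers and PCR copies were counted, so the depth sets the counting error only. Because the cultures were parted after the transduction, the p-values cover differences between cultures of a single transduced pool.

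Abundance differed widely among the members and was lowest for the constitutive proteasome. The median CPM was 123 over the control sgRNAs, 85.3 over all targeting sgRNAs and 73.5 over the members. Each of the 16 genes had a median CPM over its sgRNAs below the control median, the highest being 104 CPM for PPID. Of the 112 member sgRNAs, 24 (21.4%) stood below 46.5 CPM, the 5th percentile of the control sgRNAs, against 17.5% of all targeting sgRNAs. The 3 constitutive proteasome genes held 13 of these 24, from 21 sgRNAs (61.9%), and HSP90AB1 held another 4. Without the constitutive proteasome, 11 of 91 member sgRNAs (12.1%) were below the limit. Between PRMT5hi and PRMT5lo no member gene passed the limits for a call, and no member sgRNA passed an adjusted p of 0.05.

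PSMB1, PSMB2 and PSMB5 encode beta subunits of the core particle that every cell uses, and PSMB5 carries the chymotrypsin-like site that bortezomib blocks. By the mean of log2(CPM + 1) over their sgRNAs they ranked 41st, 39th and 51st from the scarcest of 1420 genes. PSMB1 (chromosome 6, 170535120 to 170553307 in the RefSeq annotation of GRCh38.p14, as for all genes here) was low in nearly all of its sgRNAs: 6 of 7 were below the control limit, a count that 21 of 1420 targeted genes (1.48%) reached or passed. The lowest was PSMB1_1, with 18.7 ± 5.05 CPM in PRMT5hi and 14.5 ± 4.30 CPM in PRMT5lo. The exception was PSMB1_5, with 90.3 ± 15.1 CPM in PRMT5hi and 90.9 ± 4.01 CPM in PRMT5lo, close to the median of 85.3 CPM over all targeting sgRNAs. The 5 others lay between PSMB1_3, at 21.4 CPM over both populations, and PSMB1_6, at 45.3 CPM.

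PSMB2 and PSMB5 reached a similar mean with a wider spread. Each held a very scarce sgRNA, and PSMB2_20, PSMB5_5 and PSMB5_6 lay above the median over all targeting sgRNAs. The scarcest member of all was PSMB2_3 (PSMB2: chromosome 1, 35599541 to 35641526), with 3.33 ± 1.91 CPM in PRMT5hi and 1.23 ± 1.08 CPM in PRMT5lo, about 54 and 24 reads over all 4 libraries of each population. PSMB2_2 had 28.1 ± 5.04 CPM in PRMT5hi and 18.4 ± 8.48 CPM in PRMT5lo, and PSMB2_1 had 38.4 ± 9.03 and 38.1 ± 9.97 CPM. PSMB2_5, PSMB2_4 and PSMB2_6 had 48.8, 51.6 and 57.5 CPM over both populations. They were above the control limit but below the median over all targeting sgRNAs. At the other end PSMB2_20 had 122 ± 13.9 CPM in PRMT5hi and 106 ± 2.32 CPM in PRMT5lo, so the highest sgRNA of PSMB2 was 49.99-fold above the lowest. PSMB5 (chromosome 14, 23025851 to 23035220) spanned an even wider range of 53.2-fold. Its lowest sgRNA, PSMB5_2, had 3.75 ± 2.29 CPM in PRMT5hi and 1.73 ± 1.04 CPM in PRMT5lo, and its highest, PSMB5_6, had 134 ± 32.4 and 158 ± 16.4 CPM. PSMB5_4, PSMB5_1 and PSMB5_7 were also below the control limit, at 17.5, 25.7 and 43.6 CPM over both populations. The SD over sgRNAs of log2(CPM + 1) was 1.81 for PSMB5 and 1.64 for PSMB2, the 14th and 26th largest of 1420 genes, against 0.77 for PSMB1 and a median of 0.73 over all genes.

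PSMB8 encodes the subunit that takes the place of PSMB5 in the immunoproteasome of interferon-treated and immune cells. Its sgRNAs were the most abundant of the 16 genes by the mean of log2(CPM + 1), 6.67 ± 0.69 (SD over 7 sgRNAs), and none of the 7 was below the control limit. The lowest, PSMB8_2 (PSMB8: chromosome 6, 32840717 to 32844679), had 54.5 ± 19.0 CPM in PRMT5hi and 53.6 ± 9.38 CPM in PRMT5lo, and the highest, PSMB8_3, had 182 ± 18.5 and 182 ± 18.1 CPM. The sgRNAs of PSMB5 and PSMB8 overlapped in abundance, since PSMB5_5 and PSMB5_6 (108 and 146 CPM) lay within the range of PSMB8. No test of a difference in abundance was made, because sgRNAs of 1 gene are not replicates.

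Among the chaperones, the sgRNAs of the constitutively made cytosolic HSP90 gene HSP90AB1 (chromosome 6, 44246194 to 44253883) were scarcer than those of its stress-inducible relative HSP90AA1 (chromosome 14, 102080742 to 102139749). HSP90AB1 ranked 72nd from the scarcest of 1420 genes and had 4 of 7 sgRNAs below the control limit, while HSP90AA1 ranked 385th and had 1 of 7, and the ranges of both genes overlapped. The scarcest sgRNA of HSP90AB1 was HSP90AB1_7, with 15.4 ± 3.45 CPM in PRMT5hi and 8.23 ± 4.03 CPM in PRMT5lo. HSP90AB1_2 followed at 21.3 CPM over both populations, HSP90AB1_1 at 37.9 CPM, and HSP90AB1_4 at 45.6 CPM. Its highest, HSP90AB1_6, had 96.3 ± 15.8 CPM in PRMT5hi and 118 ± 7.51 CPM in PRMT5lo. HSP90AA1_4 stood apart within its gene, with 14.0 ± 3.15 CPM in PRMT5hi and 17.0 ± 3.19 CPM in PRMT5lo, while the other sgRNAs of HSP90AA1 lay at 60.4 CPM and above. HSPB1 (chromosome 7, 76302673 to 76304292), a small heat shock protein that binds unfolded proteins without using ATP, ranked 659th, and its sgRNAs ran from 49.5 CPM (HSPB1_5) to 171 CPM (HSPB1_7).

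Among the immunophilins the levels varied within each family. PPIB (chromosome 15, 64155817 to 64163022), the cyclophilin of the endoplasmic reticulum, was the fifth scarcest of the 16 genes and ranked 107th of 1420. Only PPIB_7, with 16.4 ± 7.00 CPM in PRMT5hi and 13.2 ± 1.98 CPM in PRMT5lo, was below the control limit, and it stood apart within its gene. The others ran from 48.8 CPM (PPIB_1) to 69.9 CPM (PPIB_4) over both populations, below the median of 85.3 CPM over all targeting sgRNAs. PPIB_4 had 74.7 ± 2.13 CPM in PRMT5hi and 65.1 ± 7.21 CPM in PRMT5lo. PPIA (chromosome 7, 44796681 to 44803117), the abundant cytosolic cyclophilin that binds cyclosporin, ranked 514th, with none of its sgRNAs below the limit and a range from 49.0 CPM (PPIA_2) to 188 CPM (PPIA_5). PPID (chromosome 4, 158709127 to 158723396), a cyclophilin that docks on HSP90, held both scarce and abundant sgRNAs. PPID_2 and PPID_3 were below the control limit at 33.3 and 39.8 CPM, while PPID_5 was the most abundant member of all, with 351 ± 19.1 CPM in PRMT5hi and 386 ± 38.9 CPM in PRMT5lo.

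The 4 FKBP genes lay above the middle of the library, between rank 830 for FKBP1A and rank 987 for FKBP1B. FKBP1A (chromosome 20, 1368978 to 1393054) is the small cytosolic FKBP through which FK506 and rapamycin act, and its sgRNAs ran from 33.2 CPM (FKBP1A_3, the only one below the limit) to 196 CPM (FKBP1A_5). FKBP1B (chromosome 2, 24033206 to 24063681), a close relative that binds the ryanodine receptor of the heart, had none below the limit and its highest sgRNA, FKBP1B_3, had 290 ± 25.0 CPM in PRMT5hi and 288 ± 7.15 CPM in PRMT5lo. FKBP4 and FKBP5 are co-chaperones that HSP90 carries in steroid receptor complexes. The sgRNAs of FKBP4 (chromosome 12, 2794970 to 2805423) were the most alike of the 16 genes, from 59.1 CPM (FKBP4_5) to 138 CPM (FKBP4_6), an SD of 0.45 in log2(CPM + 1). Those of FKBP5 (chromosome 6, 35573590 to 35728583) ran from 43.0 CPM (FKBP5_2, below the limit) to 164 CPM (FKBP5_5).

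Of the stress kinases, ERN1 (chromosome 17, 64039142 to 64130144) senses unfolded protein in the endoplasmic reticulum, and EIF2AK4 (chromosome 15, 39934115 to 40035591) senses uncharged tRNA when amino acids are scarce and then dampens translation. ERN1 ranked 643rd of 1420 genes, with sgRNAs from 52.8 CPM (ERN1_7) to 154 CPM (ERN1_2). EIF2AK4 ranked 530th, with sgRNAs from 44.2 CPM (EIF2AK4_5, just below the control limit) to 120 CPM (EIF2AK4_6).

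In the order of the 16 genes from scarce to abundant, the largest step between neighbours, 0.52 in mean log2(CPM + 1), lay between PPIB and HSP90AA1, the last of the 5 scarcest genes (PSMB2, PSMB1, PSMB5, HSP90AB1 and PPIB) and the first of the other 11. The SDs over sgRNAs of this pair were 0.75 and 1.00, and whether neighbours differ was not tested. The size of this step depended on single sgRNAs. Without PPIB_7 the mean of PPIB was 5.90 in place of 5.62, and without HSP90AA1_4 that of HSP90AA1 was 6.49 in place of 6.14. These 5 were the only members among the scarcest 10% of the 1420 genes. In the whole library 204 genes (14.4%) had 3 or more sgRNAs below the control limit, against 4 of 16 member genes (25%), which were PSMB1, PSMB2, PSMB5 and HSP90AB1. At the other end 6 of 16 member genes (37.5%) had none below the limit, close to the 35.4% of all targeted genes.

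The scarce sgRNAs were also the least precisely measured. The median SE of the member sgRNAs below the control limit was 22.4% of the CPM in PRMT5hi and 18.7% in PRMT5lo, against 13.0% and 10.3% for the members above it. These medians include sgRNAs at the smallest variance in at least 1 population, 12.5% of the members below the limit and 23.9% of those above it. The SD of the log2 ratio was 0.42 over the 7 members under 20 CPM, 0.36 over the 17 members between 20 CPM and the limit, and 0.30 over the 88 above it. Over all targeting sgRNAs the SDs in these ranges were 0.58, 0.39 and 0.26. Of the 7 members under 20 CPM, 6 were lower in PRMT5lo than in PRMT5hi (PSMB1_1, PSMB2_3, PSMB5_2, PSMB5_4, HSP90AB1_7 and PPIB_7) and HSP90AA1_4 was higher. Among all 336 targeting sgRNAs under 20 CPM 47.6% were lower in PRMT5lo. This range of members was singled out after its values were seen, and none of the 7 reached a one-sided p of 0.05. The lowest of their one-sided p-values was 0.101, for PSMB5_4.

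Whether disruption of any of these genes shifted cells between PRMT5hi and PRMT5lo was the question of the sort. The mean log2 ratio of the 16 genes ran from -0.17 (FKBP4) to 0.16 (PSMB8), with 8 genes above 0 and 8 below, and the median of the 16 means was -0.02, against -0.00333 over all 1420 genes. A legend of the study gives, for sgRNAs, a p under 0.01 and a log2 ratio beyond 0.25 in the same direction. Here these limits were applied to genes, with the mean ratio and one-sided sgRNA p-values combined by Fisher's method. All 16 means lay within 0.25, so no member gene was called, while 0.845% of all genes were called toward PRMT5hi and 0.704% toward PRMT5lo. The methods of the study, which state their limits for genes, instead name a p under 0.001 for PRMT5lo. This was passed by 0.141% of all genes and leaves the members' count at 0. At an unadjusted Fisher p under 0.05, 1 of 16 members passed toward PRMT5hi (FKBP4) and 1 toward PRMT5lo (HSPB1), or 6.25% each way, against 9.30% and 8.59% of all genes. The lowest p-values among the members after Benjamini-Hochberg adjustment over 1420 genes were 0.469 for FKBP4 and 0.528 for HSPB1.

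Single sgRNAs gave a similar picture. Toward PRMT5hi 6 of 112 member sgRNAs (5.36%) had a one-sided p under 0.05, against 6.00% of all targeting sgRNAs, and toward PRMT5lo also 6 (5.36%), against 5.66%. Both shares of the members were close to those of all targeting sgRNAs. Of the 500 control sgRNAs, 6.6% had such a p toward PRMT5hi and 9% toward PRMT5lo, both above the shares of the members. After adjustment over all 10429 sgRNAs none of the members passed 0.05, against 0.0504% of the targeting sgRNAs, and the lowest adjusted p among the members was 0.191. For 5 of the 12 members with an unadjusted p under 0.05, the variance in 1 of the populations was the smallest the method allows, which reflects read counting alone (HSP90AA1_7, FKBP1A_1, PSMB8_7, PSMB2_5 and PPIB_3). Over all targeting sgRNAs with such a p, this was so for 51.8%, in 1 population or both. Without all sgRNAs of this kind, 4 members remained toward PRMT5hi and 3 toward PRMT5lo, and 3.82% and 3.88% of the targeting sgRNAs.

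The lowest p of any member belonged to 1 of the 7 sgRNAs of FKBP4, the HSP90 co-chaperone of steroid receptors. FKBP4_5 had 80.5 ± 4.27 CPM in PRMT5hi and 37.6 ± 5.87 CPM in PRMT5lo, a log2 ratio of -1.08, with a one-sided p of 0.000706 and an adjusted p of 0.191. This was the lowest ratio of the members with the pseudocount of 1 CPM, but without a pseudocount PSMB2_3 (-1.43) and PSMB5_2 (-1.11) lay below FKBP4_5 (-1.10). The 6 others ranged from -0.34 (FKBP4_6) to 0.25 (FKBP4_2), with 3 of them higher in PRMT5lo. The mean of FKBP4 was -0.17 ± 0.45 (SD over 7 sgRNAs), with a Fisher p toward PRMT5hi of 0.0288. Without FKBP4_5 its mean was -0.02 and its Fisher p 0.518, so the value of this gene rested on that sgRNA.

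FKBP5, the relative of FKBP4 in the same receptor complexes, had a mean ratio of 0.10 ± 0.16, with 5 of 7 sgRNAs higher in PRMT5lo and the highest ratio, 0.35, at FKBP5_6. FKBP1A had a mean of -0.12 ± 0.33. Its FKBP1A_1 had 194 ± 12.0 CPM in PRMT5hi and 144 ± 2.73 CPM in PRMT5lo, a log2 ratio of -0.43 with a one-sided p of 0.0106 and an adjusted p of 0.594. FKBP1A_4 had a lower ratio, -0.68, but larger errors (65.2 ± 15.1 and 40.3 ± 5.44 CPM) and a one-sided p of 0.1002. FKBP1B had a mean of 0.09 ± 0.14, the narrowest SD of the 16 genes, with ratios from -0.09 (FKBP1B_6) to 0.34 (FKBP1B_4).

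The sgRNAs of HSP90 were split in direction. HSP90AA1 had a mean of 0.02 ± 0.27 and a Fisher p toward PRMT5hi of 0.0573, although 4 of its 7 sgRNAs were higher in PRMT5lo. Of these 7, 2 had a one-sided p under 0.05 toward PRMT5hi. HSP90AA1_1 had 116 ± 6.92 CPM in PRMT5hi and 81.9 ± 6.72 CPM in PRMT5lo, a log2 ratio of -0.49 with a one-sided p of 0.00648 and an adjusted p of 0.509. HSP90AA1_7 had 153 ± 3.05 and 138 ± 3.90 CPM, a log2 ratio of only -0.14 with a one-sided p of 0.0246. Without HSP90AA1_1 the Fisher p was 0.361. HSP90AB1 had a mean of -0.16 ± 0.46, with 4 of 7 sgRNAs lower in PRMT5lo. Its lowest ratio, -0.83, was that of its scarcest sgRNA, HSP90AB1_7, with a one-sided p of 0.112. HSP90AB1_4, at 56.8 ± 8.08 CPM in PRMT5hi and 34.4 ± 6.00 CPM in PRMT5lo, had a log2 ratio of -0.71 and a one-sided p of 0.0360.

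HSPB1 was the member with the lowest Fisher p toward PRMT5lo, 0.0413, at a mean of 0.15 ± 0.39. The sgRNAs with the lowest p-values were HSPB1_3, with 59.0 ± 7.08 CPM in PRMT5hi and 85.1 ± 3.29 CPM in PRMT5lo, and HSPB1_5, with 36.4 ± 6.41 and 62.5 ± 7.92 CPM. Their log2 ratios were 0.52 and 0.76, the latter the highest of all members, with one-sided p-values of 0.0129 and 0.0219 and adjusted p-values of 0.637 and 0.732. HSPB1_1 went the other way, at -0.37 (98.5 ± 11.0 and 76.2 ± 5.61 CPM), and 3 of the 7 sgRNAs were lower in PRMT5lo. Without HSPB1_3 the Fisher p of the gene was 0.207.

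The cyclophilins showed single sgRNAs in both directions. PPIB had a mean of -0.07 ± 0.41 and held an sgRNA with a one-sided p under 0.05 each way: PPIB_6 had 64.1 ± 8.94 CPM in PRMT5hi and 39.3 ± 5.83 CPM in PRMT5lo, at a one-sided p of 0.0332, while PPIB_3 had 54.8 ± 6.78 and 73.2 ± 1.93 CPM, at a one-sided p of 0.0453. Their log2 ratios were -0.69 and 0.41. The highest ratio of the gene, 0.45, was that of PPIB_5. PPIA had a mean of 0.11 ± 0.27, with ratios from -0.31 (PPIA_1) to 0.48 (PPIA_3), and PPID a mean of 0.08 ± 0.29, with ratios from -0.28 (PPID_1) to 0.49 (PPID_2). The most abundant member, PPID_5, had a log2 ratio of 0.14.

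In the proteasome the direction of the means of PSMB2 and PSMB5 changed with their scarce sgRNAs, while PSMB1 stayed below 0 and PSMB8 above 0 whichever sgRNA was left out. PSMB1 had a mean of -0.16 ± 0.22 and no sgRNA with a one-sided p under 0.05 in either direction, with ratios from -0.48 (PSMB1_3) to 0.12 (PSMB1_4). PSMB2 had the widest SD of the 16 genes, at a mean of -0.11 ± 0.55. Its PSMB2_3 had the lowest ratio, -0.96, with a one-sided p of 0.196. PSMB2_5, with 38.5 ± 1.53 CPM in PRMT5hi and 59.1 ± 6.92 CPM in PRMT5lo, and PSMB2_4, with 42.8 ± 6.06 and 60.4 ± 2.89 CPM, went the other way, with log2 ratios of 0.61 and 0.49 and one-sided p-values of 0.0259 and 0.0266. PSMB5 had a mean of -0.08 ± 0.45, and 5 of its 7 sgRNAs were higher in PRMT5lo. The 2 lower ones, PSMB5_2 (-0.80) and PSMB5_4 (-0.69), were its scarcest. With sgRNAs under 20 CPM left out the mean of PSMB5 was 0.18 and that of PSMB2 0.03, so both changed sign. PSMB8 had the highest mean of the members, 0.16 ± 0.21, with 5 of 7 sgRNAs higher in PRMT5lo and a Fisher p toward PRMT5lo of 0.0990. Its PSMB8_7 had 134 ± 10.7 CPM in PRMT5hi and 185 ± 3.08 CPM in PRMT5lo, a log2 ratio of 0.47 with a one-sided p of 0.00887 and an adjusted p of 0.573.

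The stress kinases had no sgRNA with a one-sided p under 0.05. EIF2AK4 had a mean of -0.16 ± 0.35, with its lowest ratio, -0.79, at EIF2AK4_5 (56.2 ± 11.0 CPM in PRMT5hi and 32.1 ± 3.23 CPM in PRMT5lo, with a one-sided p of 0.0567) and its highest, 0.18, at EIF2AK4_4. EIF2AK4_7 was close to the limit as well, with 65.2 ± 7.18 and 49.3 ± 1.60 CPM and a one-sided p of 0.0506. ERN1 had a mean of 0.05 ± 0.25, with ratios from -0.39 (ERN1_5) to 0.29 (ERN1_7), and its Fisher p-values were 0.617 toward PRMT5hi and 0.562 toward PRMT5lo.

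The library also held 19 genes that work beside these proteins, such as ubiquitin ligases, steroid receptors carried by HSP90, targets of drug-bound immunophilins and translation factors. Of these 1 passed the same limits toward PRMT5hi (0.845% of all genes) and none toward PRMT5lo (0.704%), and the median of the 19 means was 0.000581. The one that passed was KEAP1, the substrate adaptor that hands NRF2 to a ubiquitin ligase for degradation. The list was chosen with earlier results of these data known, and the study names KEAP1 as its most significant gene of this direction. The count of partners called was therefore partly set by the choice of the list. KEAP1 was also used to check which population is which, so its direction is not a separate result. Its mean log2 ratio was -0.62 ± 0.27 with all 7 sgRNAs lower in PRMT5lo, and its Fisher p was 7.92e-06 (adjusted p = 0.0113). In abundance 40 of the 133 sgRNAs of these 19 genes (30.1%) were below the control limit, against 17.5% of all targeting sgRNAs. These were spread unevenly, so the share depends on which genes were listed. MTOR and EEF2 had 6 each and BIRC2, TSG101 and EIF4E 4 each, while KEAP1, NR3C2, AHR and MAP3K5 had 0.

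The sequences of the sgRNAs were not used here, so their sites, their position in the exons and their matches elsewhere in the genome were not examined. In the same RefSeq annotation, 90 pseudogenes carry the name of PPIA, 5 that of FKBP4, 4 that of FKBP1A, 2 that of HSPB1 and 1 that of FKBP1B. Those of HSP90 were counted by the stem of the name, with 6 for HSP90AB and 5 for HSP90AA. None carries the name of any other member. Of the genes with such copies, HSP90AB1 had 4 sgRNAs below the control limit, HSP90AA1 and FKBP1A 1 each, and PPIA, FKBP4, HSPB1 and FKBP1B 0. Among the members without them, the counts ran from 0 (ERN1 and PSMB8) to 6 (PSMB1). Whether sgRNAs cut at these copies was not tested.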

How the data were processed

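Reads of 8 libraries, 4 of PRMT5hi and 4 of PRMT5lo, were mapped to the sgRNA sequences, counted and compared with CB2 by the authors. FastQC and hg38 appear in the submitters' processing notes. The versions of CB2, FastQC and the mapper were not given in the sources used. Per sgRNA the authors deposited the CPM, averaged over the 4 libraries of a population, and a fraction, its share of the reads, with a variance. The 2 populations are not named in the columns of the table. Their identity was taken from a legend of the study, in which positive ratios are PRMT5lo. The study's methods state the opposite sign, under which every direction given here would be turned. The study reports KEAP1 as a negative regulator of PRMT5, whose depletion raised PRMT5 protein on Western blots. Under the identity used here the sgRNAs of KEAP1 were more abundant in PRMT5hi (mean log2 ratio -0.62), the direction that this report calls for. Under the opposite sign they would be more abundant in PRMT5lo. No value of a single library was used, so no library could be left out. The deposited ratios, scores and p-values of the authors' own comparison were not used.

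The statistic of each sgRNA was recomputed as the difference of the fractions over its SE, on a t distribution with Welch-Satterthwaite degrees of freedom. One-sided p-values were combined per gene by Fisher's method. Benjamini-Hochberg adjustment covered 10429 sgRNAs or 1420 genes (Python 3.11.15, scipy 1.17.1, numpy 2.4.6, pandas 2.3.3). The ratio used a pseudocount of 1 CPM. Depth was recovered from the sgRNAs at the smallest variance (12.1% in PRMT5hi, 17.6% in PRMT5lo). Their read totals were whole within 0.05 reads in 100% of cases. The scripts were tested on simulated data.

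The rule for the members, the classes and the list of 19 partner genes were chosen with earlier results of these data known. All member genes were named, with their highest and lowest sgRNAs, those with a one-sided p under 0.05 and those below the 5th percentile of controls. All 16 genes matched RefSeq by symbol. The alternatives were other pseudocounts, a minimum of 20 CPM, centring on controls, medians, Stouffer's method, a normal distribution, other limits, single populations and leaving out sgRNAs. Leaving out sgRNAs at the smallest variance was chosen after seeing the data.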

Additional observations from a re-analysis of the deposited data

How the results depend on the processing

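No paired analysis was possible because the deposited values are pooled over the 4 libraries of a population, and leaving out a library was not possible for the same reason. Member sgRNAs with a one-sided p under 0.05 toward PRMT5hi numbered 10 in place of 6 with a standard normal distribution (9.52% of all targeting sgRNAs), and 5 in place of 0 passed an adjusted p of 0.05 (5.01%), since this distribution ignores that the variances rest on 4 libraries. Toward PRMT5lo 3 in place of 6 had a one-sided p under 0.05 without sgRNAs at the smallest variance. The share of all targeting sgRNAs fell as well, to 3.88% from 5.66%. At the 10th percentile of the control sgRNAs 40 member sgRNAs were below the limit in place of 24 (27.4% of all targeting sgRNAs), and 10 at the 5th percentile of all targeting sgRNAs (5%), since these limits are higher and lower. With ratios centred on the control median 2 partner genes in place of 1 were called, KEAP1 and AHR. The count of called member genes was 0 in the 8 other settings, in which 0.211% to 2.11% of all genes were called. It was also 0 when an sgRNA of each gene was left out, with 1.27% to 1.97% of all genes called. All 16 means lay within 0.25, so settings that change only the p-value (Stouffer's method and the other p limits) could not add a call. Centring moved all means alike by only 0.0108, and a larger pseudocount shrinks the ratio of each sgRNA. These settings therefore had little room to add a call. The sign of the mean ratio changed in 5 of 16 genes in at least 1 setting (HSP90AA1, PPIB, PSMB2, PSMB5 and FKBP1A). For PSMB2_3, the scarcest member at 2.28 CPM, the ratio rests on 54 reads in PRMT5hi and 24 in PRMT5lo.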

Other observations

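The sgRNAs of a gene were usually numbered from 1 to 7. In the whole library 15 of 9929 targeting sgRNAs (0.151%) had a higher number, and 4 of these 15 were members, namely FKBP1A_14, FKBP1B_15, PPIA_18 and PSMB2_20. Their abundances over both populations were 83.2, 52.9, 62.6 and 114 CPM, all above the 5th percentile of the control sgRNAs, and their log2 ratios were 0.01, 0.05, 0.26 and -0.19. What the numbers stand for is not given in the sources used here.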
